A study of Mus musculus with 9 samples.

Results

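Cycling macrophages were macrophages whose transcriptomes held the RNA of dividing cells. A macrophage was a cell with at least 30 unique molecular identifiers (UMI, 1 per captured RNA molecule) per 10000 from Csf1r, Tyrobp, Fcer1g, Ctss, Laptm5, and C1qb in sum and fewer than 60 per 10000 from the collagen genes Col1a1, Col1a2, and Col3a1. It was called cycling when Mki67 and Top2a together had at least 3 UMI. Of 95603 barcodes, 81999 passed the filters, 7258 of these were macrophages, and 1486 of the macrophages were cycling, which is 20.5% of the macrophages and 1.81% of the cells that passed. Since measured values chose the cells, the levels of these 11 genes and every difference between cycling and non-cycling macrophages are given as descriptions with no test. Only whether a genotype difference was alike in both groups was tested, and there the cell cycle genes are not independent of the rule.

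The cells came from cultures of mouse embryonic fibroblasts (MEFs) that were being turned into induced neurons, analysed by single-cell RNA sequencing on days 4, 7, and 10 of induction. There were 3 genotypes, WT, Per1-/-, and Per2-/-, and each genotype was sampled once per day. According to the methods of the study, the mutants carried the targeted alleles Per1tm1Drw and Per2tm1Drw of the clock genes Per1 and Per2, the MEFs were passaged cells of embryos without head and heart, several embryos were pooled, and their sex was not determined. All 9 cultures, WT included, had received lentiviruses for neuronal transcription factors and for the doxycycline-dependent transactivator M2rtTA, and all were kept in serum-free medium with doxycycline from day 0. No difference within a day has a replicate, the days of a genotype served as its repeats, and it is not stated which days came from the same preparation of MEFs.

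A dividing cell copies its DNA in S phase and separates the copies in mitosis. E2F transcription factors switch on the replication genes at the start of S phase, and the MuvB complex with B-Myb and FOXM1 switches on the mitotic genes later. D-type cyclins with CDK4 and CDK6 release E2F from the retinoblastoma proteins, and CDK inhibitors oppose this step. Tissue macrophages can renew themselves by division, and colony stimulating factor 1 acting on its receptor CSF1R is the best known signal for their survival and proliferation.

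The genes of the rule were present as the label states. Csf1r lay between 344 and 520 CPM (UMI of a gene scaled to 1e+06 UMI of the sum) in the summed cycling macrophages of the 9 libraries, with a median of 449, and between 6.92 and 109 CPM in other cycling cells. Tyrobp, an adaptor of immune receptors, lay between 1870 and 2218 CPM, and Fcer1g, the shared chain of Fc receptors, between 2408 and 3343 CPM. Mki67, a protein of the surface of mitotic chromosomes, lay between 300 and 522 CPM and Top2a, the topoisomerase that untangles replicated DNA, between 456 and 749 CPM. In other cycling cells Mki67 lay between 369 and 498 CPM, so the mitotic markers overlapped while the macrophage markers did not. The 6 macrophage genes together had a median of 86.7 to 105 UMI per 10000 in cycling macrophages and of 110 to 135 in non-cycling ones.

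Cycling macrophages held more UMI than non-cycling ones, a difference that the absolute limit of the rule itself favours. The median UMI of a library was 27658 to 42201 in cycling macrophages and 12719 to 32230 in non-cycling macrophages, and the ratio of the medians was between 1.30 and 2.17 in every library. Since the limit of 3 UMI is absolute, a deeper cell crosses it more easily, so the shares below are also given with cells thinned to 10000 UMI, which leaves out shallower cells. In WT on day 10 this left out 14 of 66 cycling and 167 of 349 non-cycling macrophages. Most members were far from the limit. There were 189 macrophages with 3 UMI of Mki67 and Top2a, just inside, and 314 with 2 UMI, just outside, while 1129 had 6 or more, which is 76.0% of the members. After thinning, macrophages grouped by these marker UMI had a median of 11 UMI of 42 replication genes and 4 UMI of 50 mitosis genes at 2 marker UMI, 15 and 6 at 3 marker UMI, and 31 and 63 at 6 or more.

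The libraries held between 6885 and 13309 barcodes and 1.27e+08 and 3.53e+08 UMI. WT on day 10 stood apart, where a barcode had 3552 UMI in the median and 55.4% of barcodes passed, against 86.1% to 94.5% in the other libraries. Marked as likely doublets were 168 of the 1486 cells, between 0% and 24.7% per library, against 1.15% to 12.2% of non-cycling macrophages. The share was higher in cycling than in non-cycling macrophages in every library but WT on day 10. The number marked was set in advance from the barcodes of a library. The automatic threshold of Scrublet, the doublet scoring tool, marked 0 barcodes in WT on day 10 and 4 in Per1-/- on day 7. Between 13 and 365 barcodes were shared by a pair of libraries, and 45 cycling macrophages had such a barcode.

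The share of macrophages that were cycling fell over the days of induction in all 3 genotypes. The share in WT was 36.5% on day 4 (95% exact Clopper-Pearson interval for counting error 29.2% to 44.2%, 62 of 170 cells), 33.7% on day 7 (29.9% to 37.6%, 201 of 597) and 15.9% on day 10 (12.5% to 19.8%, 66 of 415). The share in Per1-/- was 48.7% (44.1% to 53.2%, 235 of 483), 22.1% (20.1% to 24.3%, 331 of 1496) and 17.0% (15.1% to 19.0%, 249 of 1466) on these days. The share in Per2-/- was 36.2% (30.02% to 42.8%, 84 of 232), 14.2% (12.3% to 16.2%, 181 of 1279) and 6.88% (5.46% to 8.52%, 77 of 1120). The mean slope was -4.53 percentage points per day, with an exact two-sided permutation p of 0.00926 over all orders of the days within genotypes, the smallest that this design can give, and it was -3.7 without WT on day 10 and -5.71 without day 10 (exact permutation p = 0.25, the smallest possible for 2 days). Thinned to 10000 UMI, the shares on days 4, 7, and 10 were 25.3%, 27.4%, and 17.1% in WT, 33.4%, 16.4%, and 13.1% in Per1-/-, and 26.3%, 9.85%, and 4.81% in Per2-/- cells. After thinning, the slope was -2.78 points per day (exact permutation p = 0.0185). WT was highest on day 7 in the thinned cells. The Per1-/- cells of day 4 differed from those of days 7 and 10 in the sex-linked RNAs Xist and Ddx3y, as given below. In Per1-/-, day and the embryos used therefore cannot be told apart.

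**Figure D1:**
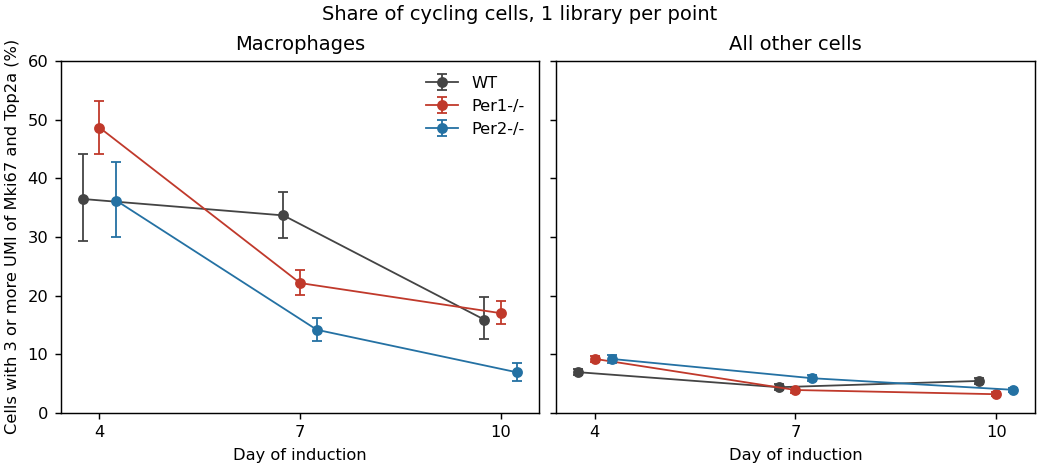
Share of cells with at least 3 UMI of Mki67 and Top2a in macrophages (left) and in all other cells (right) against the day of induction, 1 point per library, coloured by genotype, with exact 95% intervals for counting error. Macrophages start between 36.2% and 48.7% on day 4 and end between 6.88% and 17.0% on day 10, and other cells lie between 3.16% and 9.19%.

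The genotypes could not be separated by this share. Per1-/- exceeded Per2-/- on 3 of 3 days, by 10.2 percentage points on average (29.3% against 19.1%, exact two-sided permutation p = 0.25, the smallest that 8 relabellings within days allow, adjusted p = 0.444 over 4 contrasts). Per2-/- lay below WT on 3 of 3 days, by 9.60 points on average (exact permutation p = 0.25, adjusted p = 0.444). The difference between Per1-/- and WT was 0.574 points (29.3% against 28.7%, higher on 2 of 3 days, exact permutation p = 0.75), and it was -2.32 points after thinning. Per1-/- against the mean of the other genotypes was 5.38 points (exact permutation p = 0.333, adjusted p = 0.444).

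Macrophages met the limit for cycling cells more often than the other cells of the same libraries. The share of other cells at the same limit was 6.92%, 9.19%, and 9.18% at day 4 (WT, Per1-/-, Per2-/-), then 4.35%, 3.88%, and 5.89% at day 7, and 5.43%, 3.16%, and 3.91% at day 10. The mean difference was 19.9 percentage points (25.7% against 5.77%, higher in macrophages in 9 of 9 libraries, exact sign-flip permutation p = 0.00391, the smallest possible), and 15.0 points after thinning. Although macrophages were between 1.96% and 23.4% of the cells, they made up 9.52%, 19.7%, and 10.2% of all cycling cells at day 4, then 36.6%, 63.5%, and 23.7% at day 7, and 15.9%, 50.6%, and 15.4% at day 10, in the same order of genotypes. The exact interval in Per1-/- was 59.2% to 67.7% on day 7 and 46.1% to 55.1% on day 10. Under other limits, thinned, or without doublets these shares were 50.7% to 67.9% and 38.6% to 56.6%.

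The genes highest in cycling over non-cycling macrophages were those of the cell cycle. Of 13213 genes with at least 100 UMI in macrophages, the rule genes left out, 647 were on average at least 2-fold higher in cycling macrophages and higher in all 9 libraries, which is 4.90%, and 26 were at least 2-fold lower and lower in all 9, which is 0.197%. The cells were chosen on this contrast, so these counts describe the cells and nothing is read from them. The median log2 ratio over all genes was 0.09. The median log2 ratio was 4.93 for the 50 mitosis genes, 2.12 for the 42 replication genes, 1.74 for 12 chromatin and tubulin genes, and 1.48 for 12 transcription factors of the cell cycle, and 49, 42, 12, and 8 of them were on average at least 2-fold higher and higher by any amount in all 9 libraries.

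**Figure D2:**
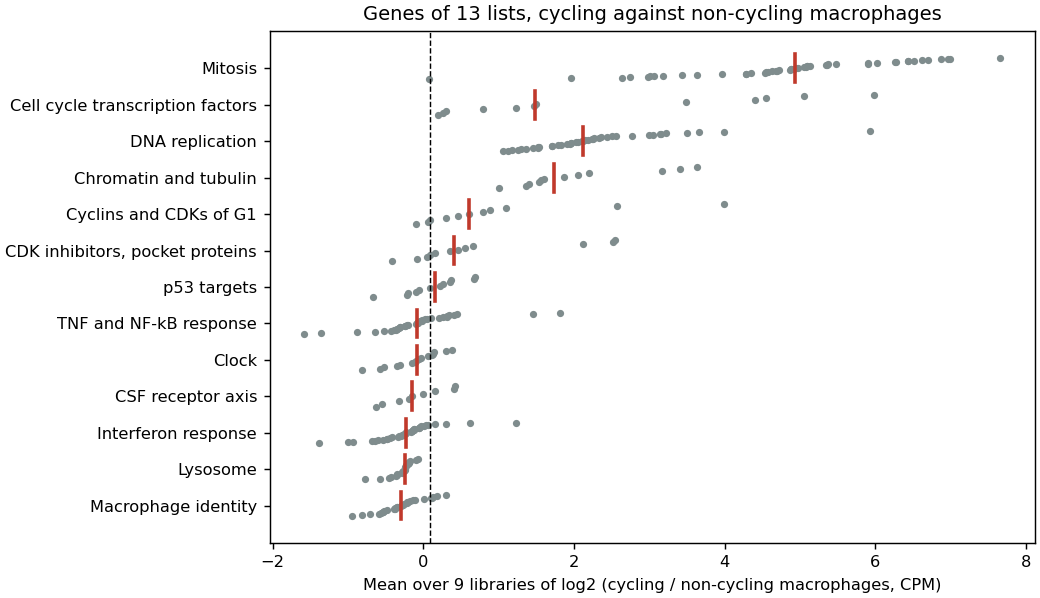
Mean over 9 libraries of the log2 ratio of CPM in cycling to non-cycling macrophages on the x axis, for the genes of 13 lists in rows, with a gray point per gene, a red bar at the median of the list, and a dashed line at the median of all genes, 0.09. The 4 lists of the dividing cell lie to the right, up to a log2 ratio of 7.65, and the macrophage identity and lysosome lists have medians of -0.29 and -0.24.

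Replication genes were raised throughout the list, from a mean log2 ratio of 1.06 for Rfc2, a subunit of the clamp loader, to 5.92 for Rrm2, the regulated subunit of ribonucleotide reductase, which makes deoxynucleotides. Rrm2 lay between 54.1 and 95.3 CPM in cycling macrophages, with a median of 79.0, and between 0.33 and 3.56 CPM in non-cycling ones, a log2 ratio of 5.92 ± 0.76 (SD over 9 libraries). Tk1, a thymidine kinase, had a log2 ratio of 3.65 ± 0.80, and Clspn, an adaptor of the replication checkpoint, had 3.50 ± 0.47. The lowest apart from Rfc2 was Cdt1, a licensing factor that is active before S phase, with 32.4 to 54.3 CPM in cycling and 8.20 to 33.9 CPM in non-cycling macrophages, a log2 ratio of 1.12 ± 0.54. In every one of these genes the ratio was above 0 in 9 of 9 libraries.

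Mitosis genes showed the largest ratios. Nusap1, a protein of the spindle microtubules, lay between 108 and 200.2 CPM in cycling and between 0.30 and 1.33 CPM in non-cycling macrophages, a log2 ratio of 7.65 ± 0.78. Pbk, a mitotic kinase, had a log2 ratio of 6.98 ± 1.48, Ckap2l, a spindle protein, of 6.96 ± 0.83, and Plk1, the kinase that drives mitotic entry and exit, of 6.87 ± 1.14. The non-cycling levels of these genes were at or below 2.65 CPM, close to the counting limit, so the ratios depend on the count of 0.5 that was added before the logarithm. At the low end stood Cdc25b, a phosphatase that activates CDK1, with 1.95 ± 0.88, and Pttg1, which encodes securin, with 0.07 ± 0.13. Pttg1 lay between 32.8 and 52.2 CPM in cycling and between 28.3 and 51.4 CPM in non-cycling macrophages, so this member of the mitosis list did not mark the cycling cells.

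The promoters of the replication and mitosis genes with the largest ratios that have an entry are shown as examples of the windows that were searched for known cell cycle elements, whose shares over the whole lists follow. Each sequence runs 5′ to 3′ on the strand of the gene from 250 bases before to 50 bases after the RefSeq start in GRCm38.p6. Capitals mark matches on either strand to TTTGAA or TTTAAA, which are forms of the cell cycle homology region (CHR) bound by MuvB complexes, to CCAAT, the NF-Y box, and to the E2F-type elements TTTCCCGC, TTTCGCGC, TTTGCCGC, and TTTGGCGC. Rrm2 is at chr12:24708004-24708303 on the forward strand, Tk1 at chr11:117825965-117826264 on the reverse strand, Nusap1 at chr2:119618048-119618347 on the forward strand, and Ckap2l at chr2:129297163-129297462 on the reverse strand.
Rrm2: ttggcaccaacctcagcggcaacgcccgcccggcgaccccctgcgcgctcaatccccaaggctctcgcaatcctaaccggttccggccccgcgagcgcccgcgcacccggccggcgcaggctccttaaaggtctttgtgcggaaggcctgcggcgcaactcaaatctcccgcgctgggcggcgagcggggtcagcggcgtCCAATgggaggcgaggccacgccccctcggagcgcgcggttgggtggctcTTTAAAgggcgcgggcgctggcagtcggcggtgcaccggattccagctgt
Tk1: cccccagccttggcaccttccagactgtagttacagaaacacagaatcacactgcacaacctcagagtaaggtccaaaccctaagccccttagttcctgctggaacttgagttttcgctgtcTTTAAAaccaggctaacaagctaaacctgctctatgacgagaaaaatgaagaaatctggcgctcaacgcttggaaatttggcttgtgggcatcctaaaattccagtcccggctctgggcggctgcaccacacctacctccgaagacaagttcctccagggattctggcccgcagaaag
Nusap1: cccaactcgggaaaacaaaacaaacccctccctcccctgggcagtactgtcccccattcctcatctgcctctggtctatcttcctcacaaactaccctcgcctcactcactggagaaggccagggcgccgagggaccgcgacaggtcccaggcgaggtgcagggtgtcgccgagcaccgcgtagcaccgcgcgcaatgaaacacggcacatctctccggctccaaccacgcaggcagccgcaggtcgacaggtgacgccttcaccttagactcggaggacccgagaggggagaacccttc
Ckap2l: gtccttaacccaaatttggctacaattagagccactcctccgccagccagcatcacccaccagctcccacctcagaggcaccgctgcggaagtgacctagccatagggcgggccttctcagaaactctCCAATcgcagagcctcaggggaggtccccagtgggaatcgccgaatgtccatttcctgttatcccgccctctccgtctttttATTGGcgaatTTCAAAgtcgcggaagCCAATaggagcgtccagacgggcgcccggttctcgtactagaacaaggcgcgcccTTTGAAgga

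The Rrm2 window held TTTAAA at bases 251 to 256 and CCAAT at 201 to 205, and the Tk1 window TTTAAA at 123 to 128. The Ckap2l window held CHR-type letters at 221 to 226 and 292 to 297 and 3 CCAAT boxes, read on either strand, and the Nusap1 window had none of the letters searched. Of the members, 33 of 42 replication genes and 41 of 50 mitosis genes had a promoter entry, with 40 and 43 windows. A CHR-type element lay in 83.7% of the mitosis windows, in 25% of the replication windows, and in 27.6% of all 32851 windows. An E2F-type element lay in 37.5% of the replication windows, 6.98% of the mitosis windows, and 2.26% of all windows, and CCAAT in 57.5%, 79.1%, and 37.4%. For comparison, CHR-type letters lay in 36.7% of 30 windows of macrophage identity genes and in 20% of 20 windows of lysosome genes. The median GC content was 59.2% in replication, 59.7% in mitosis, and 52.7% in all windows. A match describes letters only and was not tested as a site.

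The transcription factors of the cell cycle differed in how strongly they marked cycling macrophages. E2f7 and E2f8, repressors of the E2F family that are made in S phase, had log2 ratios of 5.98 ± 1.02 and 4.54 ± 0.80. Foxm1, the factor of the mitotic program, lay between 27.2 and 45.8 CPM in cycling and between 0.43 and 1.82 CPM in non-cycling macrophages, a log2 ratio of 5.05 ± 0.66. Mybl2, which encodes B-Myb, had 4.40 ± 0.74, and E2f2, an activating E2F, 3.48 ± 1.31. Lin9 and Lin54, subunits of MuvB, had 1.5 ± 0.30 and 1.47 ± 0.23, and E2f1, an activator, 1.23 ± 0.35. The ratios were small for E2f6, a repressor, at 0.79 ± 0.12, E2f5 at 0.30 ± 0.20, the activator E2f3 at 0.26 ± 0.16, and E2f4, the E2F of resting cells, at 0.19 ± 0.20. Among chromatin genes, H2afx, the histone variant H2AX of the DNA damage response, had 3.63 ± 0.51, Lmnb1, which encodes lamin B1, 3.40 ± 0.63, and Hmgb2, a chromatin protein of dividing cells, 3.17 ± 0.20, and the lowest of the 12 was Hmgb1 with 1.0 ± 0.15.

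Among the G1 cyclins, the E-type genes had the largest ratios, and Ccnd1 and Ccnd3 of the D type lay close to 0. Ccne2, a partner of CDK2 at the start of S phase, lay between 22.4 and 80.2 CPM in cycling and between 1.07 and 7.63 CPM in non-cycling macrophages, a log2 ratio of 3.99 ± 0.61, and Ccne1 had 2.57 ± 0.60. Ccnd1, the cyclin D1 gene, lay between 255 and 608 CPM in cycling and between 162 and 675 CPM in non-cycling macrophages, a log2 ratio of 0.09 ± 0.51 that was above 0 in 5 of 9 libraries. Ccnd3 had 0.06 ± 0.14, and Ccnd2 had 0.89 ± 0.39 and was higher in 9 of 9 libraries. The kinases had 1.09 ± 0.24 for Cdk2, 0.60 ± 0.12 for Cdk4, and 0.30 ± 0.23 for Cdk6. The phosphatase Cdc25a had 0.79 ± 0.30, and the growth factor response genes Myc and Mycl had -0.10 ± 0.38 and 0.46 ± 1.09. Mycn had fewer than 100 UMI.

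Among the inhibitors, those of the INK4 class that are E2F targets were high in cycling macrophages. Cdkn2d and Cdkn2c, which encode the CDK4 and CDK6 inhibitors p19 and p18, had log2 ratios of 2.54 ± 0.22 and 2.52 ± 0.48, and the pocket protein gene Rbl1, which encodes p107, had 2.12 ± 0.30. Cdkn2c lay between 61.5 and 139 CPM in cycling and between 13.7 and 34.6 CPM in non-cycling macrophages, so the groups did not overlap. Cdkn2b had 0.66 ± 0.36, Cdkn1b, which encodes p27, 0.55 ± 0.10, Cdkn2a, the INK4A and ARF locus, 0.46 ± 0.43, and Cdkn1c, which encodes p57, 0.36 ± 0.93. Cdkn1a, the p53 target p21, had 0.15 ± 0.19, Rb1 0.09 ± 0.17, and Rbl2 0.05 ± 0.20. The antiproliferative genes Btg1 and Btg2 had -0.09 ± 0.09 and -0.41 ± 0.27. The median over 12 p53 targets was 0.15, with Eda2r, a TNF receptor family member, at 0.68 ± 0.66, the BH3-only gene Pmaip1 at 0.67 ± 0.27, and Sesn1, a sestrin of the stress response, at -0.67 ± 0.20.

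Macrophage and lysosome genes were somewhat lower in cycling macrophages. The median log2 ratio was -0.29 over 30 macrophage identity genes, of which 12 were lower in all 9 libraries, and -0.24 over 24 lysosome genes, of which 19 were lower in all 9, beside 8.48% of all genes. Mertk, a receptor for the uptake of dead cells, lay between 34.0 and 60.9 CPM in cycling and between 47.6 and 104 CPM in non-cycling macrophages, a log2 ratio of -0.71 ± 0.22. Apoe, an apolipoprotein, had -0.81 ± 0.48, the protease gene Ctsl -0.57 ± 0.15, and Atp6v0d2, a subunit of the proton pump, -0.78 ± 0.63. F13a1, the factor XIII subunit, had -0.95 ± 1.83, a spread wider than the difference. At the upper end of the lists stood Cebpb, a myeloid transcription factor, with 0.29 ± 0.24 and the glucuronidase gene Gusb with -0.07 ± 0.13. The rule genes moved the same way, with -0.55 ± 0.15 for Csf1r and -0.47 ± 0.10 for Tyrobp. All ratios are relative to total UMI. The library median of the summed mitosis genes was 5818 CPM in cycling and 347 CPM in non-cycling macrophages. It was 3233 and 1000 CPM for the replication genes and 7554 and 2451 CPM for the chromatin and tubulin genes. The effect of these shares on the other ratios was not tested.

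The receptor genes of growth signals named here were present in cycling macrophages without being raised. The 9 measured members of the CSF receptor list, Csf1r left out, had a median log2 ratio of -0.16. They ranged from -0.63 to 0.42, with 0 higher and 2 lower in all 9 libraries. Csf2rb, the common receptor chain for GM-CSF and IL-3, lay between 30.6 and 49.8 CPM, a log2 ratio of -0.56 ± 0.17, Csf3r, the G-CSF receptor, had -0.63 ± 0.47, and Csf2ra, the GM-CSF receptor chain, -0.16 ± 0.32. Csf1, the ligand of CSF1R, lay between 7.29 and 22.4 CPM in cycling macrophages and between 47.5 and 101 CPM in the non-cycling cells that were no macrophages, so the ligand was higher in these cells than in cycling macrophages in every library. The median log2 ratio was -0.31 for the 4 measured MHC class II genes, with Cd74 between 0 and 9.47 CPM in cycling macrophages. It was -0.23 for 38 interferon response genes, where Slfn5 had -1.39 ± 0.29, Ifit3b -0.99 ± 0.60, and Cxcl10 1.23 ± 1.94. For 37 NF-kB and TNF response genes the median was -0.08, with the signalling adaptor gene Traf1 at 1.81 ± 1.35 and the chemokine gene Ccl5 at -1.58 ± 1.90. For 16 clock genes it was -0.08, with Dbp, an output gene of the clock, at -0.82 ± 0.29 and lower in 9 of 9 libraries, and Ciart, a repressor of the clock, at 0.38 ± 0.54.

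Cycling macrophages held RNA of both the replication and the mitosis genes, and no cell was assigned to a stage. At 10000 UMI, a cycling macrophage held a library median of 22.5 to 36 UMI of the replication genes and of 32 to 51 UMI of the mitosis genes, against 4 to 7 and 2 to 3 in non-cycling macrophages. Between 45.8% and 59.8% of cycling macrophages held more mitosis than replication UMI, as did 15.5% to 23.1% of non-cycling macrophages. In other cycling cells the medians were 15 to 24 and 38 to 61 UMI, and 55.6% to 69.7% held more mitosis UMI. After thinning 1453 of the 1486 cycling macrophages and 4178 of 4423 other cycling cells remained.

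**Figure D3:**
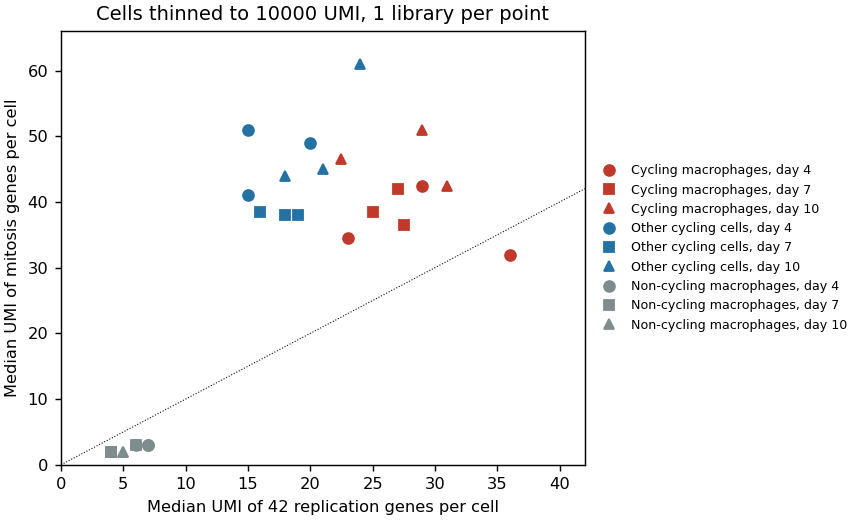
Median UMI of 42 replication genes (x axis) and of 50 mitosis genes (y axis) per cell at 10000 UMI, 1 point per library and cell set, with symbols for the day and a dotted line where both are equal. Cycling macrophages (red) lie to the right of other cycling cells (blue) on average, with 22.5 to 36 against 15 to 24 replication UMI, and non-cycling macrophages (gray) lie near the origin.

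The balance of both programs lay further toward mitosis on day 10 than on day 4, with a call by day that was not stable. The log2 ratio of the summed replication CPM to the summed mitosis CPM of cycling macrophages on days 4, 7, and 10 was -0.26, -0.85, and -0.69 in WT, -0.75, -0.83, and -0.94 in Per1-/-, and -0.76, -0.90, and -1.37 in Per2-/- cells. This value fell from day 4 to day 10 in all 3 genotypes, and in WT it was lowest on day 7. The mean slope was -0.068 per day (exact two-sided permutation p = 0.0463). The call was lost on leaving out any 1 of 7 of the 9 libraries, all but WT on days 7 and 10, and the slope was -0.026 without WT on day 4 and -0.110 without WT on day 10. It was also lost after thinning (-0.050, exact permutation p = 0.0648) and without the shared barcodes (-0.0620, exact permutation p = 0.0741). By genotype, Per2-/- lay below WT on 3 of 3 days, by 0.41 on average (log2 difference -0.41, exact permutation p = 0.25, the smallest possible), and Per1-/- differed from WT by -0.24 (exact permutation p = 0.5) and from Per2-/- by 0.17 (exact permutation p = 0.25). Other cycling cells had a balance of -1.56 to -1.11, and non-cycling macrophages of 0.90 to 1.54.

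Compared with the other cycling cells of the same libraries, cycling macrophages held more RNA of replication genes in 8 of 9 libraries. The summed replication genes were at 3035 to 3741 CPM in cycling macrophages and at 2183 to 2769 CPM in other cycling cells of these 8, and at 2470.3 against 2822 CPM in Per2-/- on day 10. In cells thinned to 10000 UMI they were higher in cycling macrophages in 6 of 9 libraries, and lower in Per2-/- on days 7 and 10 and in Per1-/- on day 10. Both sides were chosen by the same UMI of Mki67 and Top2a, and the list genes tested here were not used by the rule. Of 13006 genes, 79.1% were called different by edgeR's quasi-likelihood test with library as a block (Benjamini-Hochberg adjusted p below 0.05), 39.2% higher and 40.0% lower in cycling macrophages. Of the 140 cell cycle genes, 95 were called, 72 higher and 23 lower. Of the replication genes, 29 of 42 were higher and 1 lower (median log2 difference 0.55 beside -0.01 for all genes), of the mitosis genes 23 of 50 were higher and 7 lower (0.18), and of the transcription factors 9 of 12 were higher and none lower (0.51). The summed mitosis genes were at 4261 to 6460 CPM in cycling macrophages and at 5625 to 7396 CPM in other cycling cells. In cells thinned to 10000 UMI, the mitosis sum was lower in cycling macrophages in every library. It was 5960 against 9150 CPM in WT on day 4 and 7971 against 8211 CPM in Per1-/- on day 10. The edgeR fits were not repeated on thinned cells. They rescale each sum (TMM) between cell types that differ in most genes. The edgeR values here and below are therefore not ratios of the CPM printed beside them. No fit was run without rescaling, so the part of it in the calls was not tested. The other cycling cells also held macrophage RNA, with Tyrobp between 35.4 and 414 CPM.

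The replication genes with the smallest p were Fen1, the flap endonuclease of lagging strand synthesis, and the initiation factor Mcm10. Fen1 lay between 67.7 and 90.7 CPM in cycling macrophages and between 25.4 and 44.5 CPM in other cycling cells, a log2 difference of 1.47 (SE 0.08, edgeR adjusted p = 1.3e-08). Mcm10 lay between 22.8 and 40.1 CPM against 12.5 to 20.2 CPM (1.36, SE 0.08, edgeR adjusted p = 4.1e-08), and the groups overlapped in neither gene. Pcna, the sliding clamp, differed by 1.42, Cdt1 by 1.65, the helicase subunit Mcm3 by 1.04, and Gins2, a subunit of the GINS complex, by 0.68. Dut, the dUTPase, was the 1 replication gene called lower, with 78.1 to 126 CPM in cycling macrophages and 125 to 177 CPM in other cycling cells (log2 difference -0.40). Rrm2, the replication gene with the largest ratio within macrophages, differed by -0.02 (SE 0.09, edgeR adjusted p = 0.84). Of the mitosis genes, Incenp, a subunit of the chromosomal passenger complex, differed by 0.95 and Ckap2, a microtubule protein, by -1.31.

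**Figure D4:**
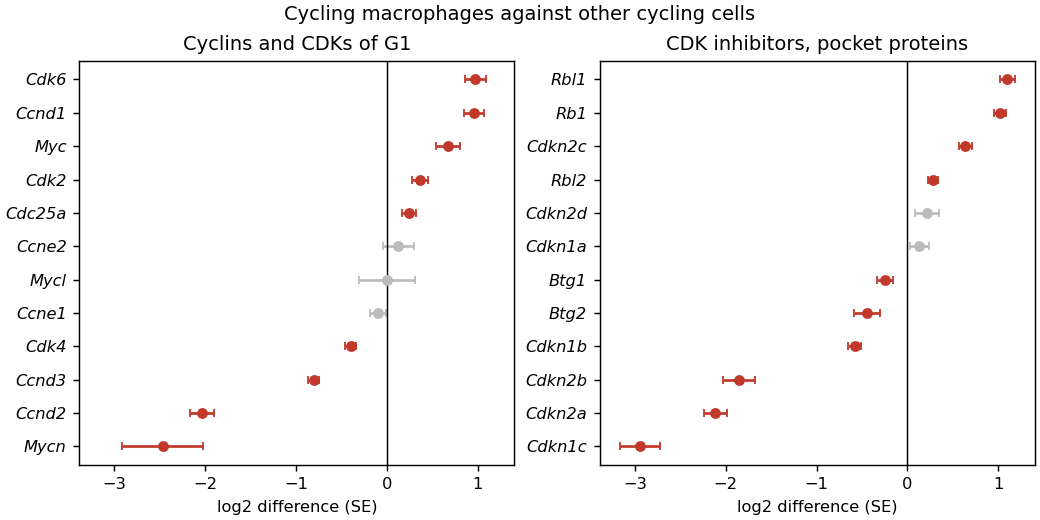
Log2 difference between cycling macrophages and other cycling cells (x axis, edgeR estimate with SE bars) for the cyclins, CDKs, and Myc genes of G1 (left) and for the CDK inhibitors and pocket proteins (right), in red where the adjusted p is below 0.05 and in gray otherwise. Cdkn1c, Mycn, Cdkn2a, and Ccnd2 lie furthest to the left at -2.94, -2.47, -2.11, and -2.04, and Rbl1 and Rb1 to the right at 1.10 and 1.02.

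Of 12 cyclins, CDKs, and Myc genes of G1, 5 were called higher and 4 lower, and of 12 inhibitors and pocket proteins, 4 higher and 6 lower, which is near the 39.2% and 40.0% of all genes. Ccnd2 lay between 63.4 and 143 CPM in cycling macrophages and between 299.6 and 579 CPM in other cycling cells (log2 difference -2.04, SE 0.13, edgeR adjusted p = 7.1e-08), and Ccnd3 differed by -0.81. Ccnd1 lay between 255 and 608 CPM against 182 to 295 CPM, and Cdk6 between 88.9 and 124 against 52.9 to 89.8 CPM, with edgeR log2 differences of 0.95 and 0.97. Cdkn1c lay between 49.9 and 255 CPM in cycling macrophages and between 511 and 878 CPM in other cycling cells (-2.94, SE 0.22, edgeR adjusted p = 2.4e-07). Cdkn2a lay between 17.0 and 63.3 CPM against 93.7 to 220 CPM (-2.11, SE 0.13, edgeR adjusted p = 4.1e-08). Cdkn2b and Cdkn1b differed by -1.86 and -0.58, while the pocket protein genes Rb1 and Rbl1 differed by 1.02 and 1.10. E2f1 and E2f2, activating E2Fs, differed by 0.99 and 1.45 and H2afv, a histone variant, by -0.48.

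Between genotypes, few genes of the cycling macrophages were called, and none of them was a cell cycle gene. The test asked for a difference shared by the 3 days (edgeR, 12327 genes, day as a factor). Per1-/- against WT gave 0 calls (0% of genes, 1191 genes at an unadjusted p below 0.05, with 49 calls by DESeq2 and 8 by limma-voom), and Per2-/- against WT gave 0 (903 at an unadjusted p below 0.05, with 22 by DESeq2 and 0 by limma-voom). Per1-/- against Per2-/- gave 2, both lower, which is 0.0162% of genes. Per1-/- against the mean of the other genotypes gave 5, which is 0.0406%, of which 3 were higher (0.0243%) and 2 lower (0.0162%). In all 4 contrasts, 0 of 139 cell cycle genes tested were called, with list medians of log2 differences between -0.21 and 0.17 for the replication and mitosis genes.

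Vcam1 and Rtn4rl1 were lower in Per1-/- than in Per2-/- cycling macrophages. Vcam1 (chr3:116109949-116129688, GRCm38), an adhesion molecule, was at 7.99, 8.13, and 8.85 CPM in Per1-/- on days 4, 7, and 10, at 23.6, 37.2, and 68.1 CPM in Per2-/-, and at 11.6, 8.53, and 20.3 CPM in WT (log2 difference to Per2-/- -2.26, SE 0.25, edgeR adjusted p = 0.0485). Rtn4rl1 (chr11:75193783-75267769), a Nogo receptor homolog, was at 3.31, 3.79, and 5.41 CPM in Per1-/-, 11.4, 14.0, and 19.6 CPM in Per2-/-, and 8.02, 14.6, and 22.9 CPM in WT (-1.82, SE 0.21, edgeR adjusted p = 0.0485). In both genes the Per1-/- libraries lay below all Per2-/- libraries, and they lay below all WT libraries in Rtn4rl1 but not in Vcam1. Rtn4rl1 was at 6.55 to 36.3 CPM in non-cycling macrophages and at 3.36 to 8.03 CPM in other non-cycling cells, and Vcam1 was at 88.1 to 142 CPM in other non-cycling cells. The genotype difference in cycling minus that in non-cycling macrophages was 0.07 for Vcam1 (SE 0.35, edgeR adjusted p = 1.0) and -0.24 for Rtn4rl1 (SE 0.19, edgeR adjusted p = 0.934), so neither was shown to be particular to the cycling cells.

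In Per1-/- against the mean of both other genotypes, Cxcl2, Clec4e, and Aqp4 were higher and Rtn4rl1 and Gfra1 lower. Cxcl2, a neutrophil chemokine, was at 15.4, 12.6, and 0.25 CPM in Per1-/- on days 4, 7, and 10, at 1.78, 1.24, and 0.52 CPM in WT, and at 2.04, 1.13, and 0 CPM in Per2-/- (log2 difference 3.14, SE 0.35, edgeR adjusted p = 0.0290), so it was high on days 4 and 7 and not on day 10. Clec4e, a C-type lectin receptor that senses mycobacteria and dead cells, was at 6.82, 25.2, and 2.58 CPM in Per1-/-, 1.78, 3.1, and 2.08 CPM in WT, and 0.81, 0.71, and 0.40 CPM in Per2-/- (3.32, SE 0.40, edgeR adjusted p = 0.0388). The cycling macrophages of WT and Per2-/- on days 4 and 10 held 1.93e+06 to 2.51e+06 UMI per library. The levels of Cxcl2 and Clec4e there rest on few UMI. Aqp4, a water channel of astrocytes, was at 0.88, 33.0, and 16.5 CPM in Per1-/- and at or below 3.26 CPM in the other 6 libraries (4.12, SE 0.45, edgeR adjusted p = 0.0290). Aqp4 reached 61.8 CPM in non-cycling cells that were no macrophages. Gfra1, a receptor for GDNF, was at 8.38, 4.79, and 3.93 CPM in Per1-/- and at 10.9 to 19.1 CPM in the other 6 libraries (-1.28, SE 0.16, edgeR adjusted p = 0.0388), and it was at 38.9 to 57.6 CPM in other non-cycling cells. Rtn4rl1 differed by -1.78. For Clec4e, the Per1-/- difference in cycling minus that in non-cycling macrophages was -0.51 against WT and 1.88 against Per2-/-. It was 2.20 and -0.43 for Cxcl2 and -0.64 and -0.76 for Gfra1. None of these was called by edgeR, so none was shown to be particular to the cycling cells. The fibroblast markers Fbn1, Dcn, Postn, Col5a1, Lum, and Pdgfra differed by -0.67, -0.53, -0.43, -0.38, -0.22, and -0.03 between Per1-/- and WT cycling macrophages, none of them called. Between Per2-/- and WT they differed by -0.22, -0.24, 0.50, 0.30, 0.84, and 0.30 in the same order, again with none called. Between Per1-/- and Per2-/-, where Vcam1 was called, Postn differed by -0.93 and was not called. The part of RNA from other cells in Aqp4, Gfra1, and Vcam1 was not tested.

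**Figure D5:**
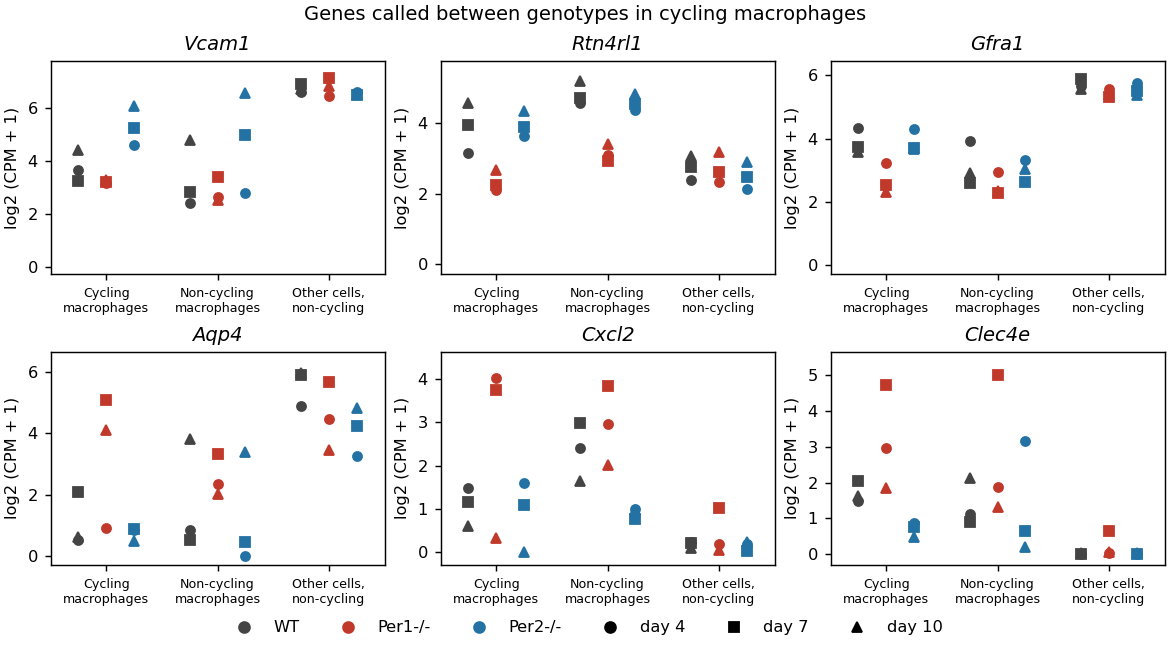
Levels on a log2 (CPM + 1) scale (y axis) of 6 genes in cycling macrophages, non-cycling macrophages, and non-cycling other cells (x axis), 1 point per library, coloured by genotype and with symbols for the day. In cycling macrophages Rtn4rl1 of Per1-/- lies at 3.31 to 5.41 CPM, below both other genotypes, and Vcam1 of Per1-/- lies at 7.99 to 8.85 CPM, below Per2-/- only.

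These calls depended on the settings. Against the mean, Rtn4rl1 was called in 10 of 20 alternatives, Cxcl2 in 9 of 17, Clec4e in 9 of 20, Aqp4 in 7 of 18, and Gfra1 in 4 of 20. Against Per2-/-, Rtn4rl1 was called in 9 of 20 and Vcam1 in 6 of 20. Without the shared barcodes, Per1-/- against Per2-/- gave 0 calls. The interferon response genes had a median log2 difference of 0.88 between Per2-/- and WT, with all 38 above 0 and none called, and of 0.29 between Per1-/- and WT. Their summed CPM on days 4, 7, and 10 was 1734, 1448, and 2238 in WT, 1992, 1911, and 2361 in Per1-/-, and 960, 3975, and 3623 in Per2-/-, so Per2-/- was lowest on day 4 and highest on the later days. Per1 lay between 3.20 and 6.53 CPM in all 9 libraries and Per2 between 0.52 and 5.21 CPM, highest in Per2-/-. The libraries are read at the 3′ end, and such tags outside the deleted part do not check the genotype. The Per1-/- libraries of days 7 and 10 had 0.09 and 0 CPM of Xist and 78.2 and 94.4 CPM of Ddx3y in cycling macrophages, and the other 7 had 445 to 1192 and 13.5 to 38.5 CPM, so genotype and the sex of the embryos cannot be told apart on these days. Per1-/- on day 4 was among these 7. For every result by day, day and the embryos used thus cannot be told apart in Per1-/-.

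By day, Acp5 and Grem1 fell between days 4 and 7 (2 of 12327 genes, 0.0162%, edgeR), with calls in 14 of 18 and 9 of 16 alternatives, and the number of genes called was 1 to 28 without 1 library and 120 by DESeq2. Acp5, the tartrate-resistant phosphatase of osteoclasts, was at 23.2, 5.07, and 26.5 CPM in WT, Per1-/-, and Per2-/- on day 4 and at 1.24, 0.63, and 1.27 CPM on day 7 (log2 difference -3.85, SE 0.34, edgeR adjusted p = 0.00996). Grem1, a BMP antagonist of fibroblasts, was at 41.9, 5.65, and 14.7 CPM and at 2.02, 0.72, and 0.28 CPM (-4.09, SE 0.42, edgeR adjusted p = 0.0204). Both were lowest on day 4 in Per1-/-, and Grem1 was at 4.96 to 53.1 CPM in the non-cycling cells that were no macrophages. In Per1-/-, days 4 and 7 also differed in Xist and Ddx3y, so day and the embryos used cannot be told apart there.

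Between days 7 and 10, 130 genes were called (1.05%), 109 higher and 21 lower. The largest were steps that all libraries of a day shared, such as Rnasek, a protein of the proton pump, from 1.44 to 3.1 CPM on day 7 to 316 to 417 CPM on day 10 (log2 difference 7.47) and the phosphatase gene Ptp4a1 from 79.0 to 85.1 CPM to 0.98 to 1.56 CPM (-6.15). The other 7 genes with the smallest p that rose were Timm23, Tomm6, Fdx1l, Hgs, Fam89b, Mrpl53, and Galnt2, and those that fell were Coro1b, Rps6ka4, Taf6l, Fam220a, Rnf149, Nxf1, and Chtf8. The day 10 matrices were made with another feature table and version of Cell Ranger, and day and annotation cannot be told apart. Of the cell cycle genes, Pcna was called higher on day 10, at 497, 468, and 335 CPM in WT, Per1-/-, and Per2-/- against 277, 249, and 268 CPM on day 7 (log2 difference 0.68, SE 0.12, edgeR adjusted p = 0.0362), a call made in 10 of 18 alternatives, and it was also higher on day 10 in other cycling cells, where it reached 252 CPM beside a median of 116 CPM over all days. Cxcl2 differed by -4.87 (SE 0.66, edgeR adjusted p = 0.00596).

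Whether a genotype difference was the same in cycling and non-cycling macrophages was tested as an interaction (edgeR, 18 sums, 11907 genes). The rule that split these cells used cell cycle markers, so the values of cell cycle genes here are not independent of it, and nothing is read from their calls. Per1-/- against WT gave 2 genes, both higher (0.0168%), Per1-/- against Per2-/- gave 1, higher (0.0084%), and Per2-/- against WT gave 20 (0.168%), 13 higher (0.109%) and 7 lower (0.0588%). For Per2-/- against WT, 2 of 42 replication and 3 of 50 mitosis genes were called higher, among them Birc5, which encodes survivin, and the mitotic cyclin gene Ccnb2. Birc5 in cycling macrophages was at 198, 283, and 267 CPM in WT and at 235, 255, and 309 CPM in Per2-/- on days 4, 7, and 10, so the levels of both genotypes overlapped in the cycling cells.

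Markers of other cell types were also found in cycling macrophages. At 10000 UMI, 40.2% to 79.7% of cycling macrophages had a UMI of 6 fibroblast markers, beside 94.0% to 97.5% of non-cycling other cells, and 9.82% to 52.7% had a UMI of 6 neuron markers. The summed fibroblast markers were at 189 to 520 CPM in cycling macrophages, 118 to 296 CPM in non-cycling macrophages, and 2681 to 6585 CPM in non-cycling other cells. A UMI of 3 Schwann cell markers was found in 24.3% of the cycling macrophages of Per2-/- on day 10, in 4.86% of its non-cycling macrophages, and in 0% to 5.56% of the cycling macrophages of the other libraries, and Per2-/- on day 10 also had the highest share of likely doublets, 24.7%. The part of these markers in the results was not tested. Mast cell markers were at 0 UMI in all 9 libraries.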

How the data were processed

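UMI counts of single cells were used as deposited, in whole numbers per gene and barcode. The authors made these counts with Cell Ranger against mm10 per the labels. The labels name version 7.1 and the file headers 4.0.0 for days 4 and 7 and 6.0.0 for day 10. Only the 30406 gene identifiers in both feature tables were used. A barcode was kept if it held 3000 UMI or more, of which mitochondrial genes made up no more than 20%. The rule for members was applied to each cell, doublets were scored with Scrublet (scanpy 1.11.5) and kept unless stated, and counts were summed per library and cell set.

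The members and all gene lists were chosen with earlier results of these data known. Genes were tested with edgeR 4.0.16 (R 4.3.3), by its two-sided quasi-likelihood test after TMM scaling and filterByExpr, and p-values were adjusted by Benjamini-Hochberg across the whole table with a threshold of 0.05. Genotype and day were factors, and library was a block where cell sets of the same libraries were compared. Ratios of cycling to non-cycling macrophages were taken in each library after 0.5 counts were added. Shares and balances were compared by exact two-sided permutation tests with labels permuted within days or genotypes. Other limits for the rule, thinning, DESeq2 1.42.0, limma-voom (limma 3.58.1), RLE scaling, no filter, and omission of each library were the alternatives. Named were the rule genes, the members of short lists, the 4 highest and 2 lowest members of longer lists, and the genes and list members with the smallest p per contrast. Not every member of the short lists, such as the p53 targets, is printed. Genes given outside this rule, such as Dut, E2f1, Incenp, and Ifit genes, were chosen after their values were seen. Some items are not reported here. The fits were tested on simulated data. Depth was 1.27e+08 to 3.53e+08 UMI per library, and intervals cover counting error only. Promoter sequences are from RefSeq (GRCm38.p6), and gene positions are from GENCODE M21 (GRCm38).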

Additional observations from a re-analysis of the deposited data

Results flagged for a closer look

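Genotype differences that were not alike in cycling and non-cycling macrophages were found in an edgeR interaction test over 18 sums and 11907 genes, with 2 genes called for Per1-/- against WT (0.0168%), 1 for Per1-/- against Per2-/- (0.0084%) and 20 for Per2-/- against WT (0.168%, of which 13 were higher and 7 lower). Each value is the log2 difference between genotypes in cycling macrophages minus that in non-cycling macrophages, and no explanation was tested.

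For Per2-/- against WT, 2 of 42 replication and 3 of 50 mitosis genes were called higher. The cells had been split by cell cycle markers, so these calls are not independent of the rule and nothing is read from them. In non-cycling macrophages, the summed replication genes on days 4, 7, and 10 were at 1126, 1010, and 1009 CPM in WT. In Per2-/- they were at 1000, 648, and 518 CPM. Birc5, which encodes survivin, differed by 0.98, Ccnb2, a mitotic cyclin, by 1.61, Pclaf, a PCNA-binding factor, by 1.23, and the chromatin gene Hmga2 by 1.09. Ccnb2 was at 60.1, 132, and 115 CPM in WT and at 96.9, 126, and 145 CPM in Per2-/- cycling macrophages on days 4, 7, and 10. In the non-cycling macrophages of all libraries it was at 3.88 to 29.9 CPM, and Birc5 was at 4.90 to 22.4 CPM. With non-cycling macrophages limited to those with 0 UMI of Mki67 and Top2a, an alternative chosen after seeing the data, the counts were 0, 0, and 11 genes, and Birc5 differed by 0.55.

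Also higher were the interferon-induced Ifi27l2a at 0.51, the adaptor gene Lat2 at 0.99, the chemokine gene Ccl4 at 1.17, and Col18a1, a collagen gene, at 1.99. Lower were Hpgd, which inactivates prostaglandins, at -0.76, Aif1, which encodes IBA1, at -0.51, Tmem176a at -0.77, the clock gene Per3 at -1.14, Kctd12 at -0.45, and the synaptic genes Pclo and Syt1 at -1.50 and -1.53. Of these, Per3 was called in 7 of 19 alternatives, Kctd12 in 5 of 20, Pclo in 5 of 19, and Syt1 in 6 of 19, with values as close to 0 as -0.68 for Pclo and -0.31 for Syt1. For Per1-/- against WT, Birc5 differed by 0.90 and Gng12, a G protein subunit, by 0.43, called in 10 and 5 of 20 alternatives. For Per1-/- against Per2-/-, Pclo differed by 2.09, called in 9 of 20. Pclo was at 17.7 to 99.0 CPM in non-cycling cells that were no macrophages and at 3.25 to 21.8 CPM in cycling macrophages, and its part in the result was not tested.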

How the results depend on the processing

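The labels give no replicate numbers to pair libraries by. Libraries were matched only by day or genotype, through permutation within these or as factors of the fit, and cell sets were paired within libraries. Leaving out 1 library at a time is printed as a range.

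The higher share of cycling cells in macrophages kept its direction and its call in every alternative (17.5 to 22.0 points without 1 library). The fall by day was -5.71 points per day without day 10, where 2 days cannot reach the threshold, and -5.72 to -3.34 without 1 library. Per1-/- against WT changed sign: it was -1.30 points with a limit of 2 UMI, -2.32 and -4.55 thinned with limits of 3 and 1 UMI, -5.05 called from 5 mitosis UMI, -0.141 with a collagen limit of 20, and -5.23 to 6.63 without 1 library. Without 1 library, the share differed by -14.3 to -4.65 points for Per2-/- against WT and by 9.04 to 11.3 for Per1-/- against Per2-/-. For Per1-/- against the mean of the other genotypes it differed by 1.91 to 8.96 points. The balance by day was -0.0897 without day 10, -0.0501 thinned, -0.0620 without shared barcodes, and -0.110 to -0.0263 without 1 library, and that of Per1-/- against the mean was -0.0923 to 0.0669. Without 1 library, the balance of Per1-/- differed by -0.368 to -0.115 from WT and by 0.0439 to 0.249 from Per2-/-. That of Per2-/- differed by -0.592 to -0.272 from WT.

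Genes at least 2-fold lower in cycling macrophages were 41 when non-cycling macrophages had 0 UMI, and 29 to 40 without 1 library. Calls in the comparison with other cycling cells stayed within 1.5 times in the order of 62 to 87 higher and 19 to 29 lower.

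Counts of genes called between genotypes and days moved most. Without the filter on low counts they were 89 for Per1-/- against WT, 77 for Per1-/- compared with Per2-/-, 25 for Per2-/- compared with WT, 66 for Per1-/- against the mean, 170 for day 7 against 4, 231 for day 10 against 7, and for the interaction 91, 125, and 222 in the order of the first 3 contrasts. DESeq2 gave 49, 53, 22, 51, and 120, and 2 in the interaction for Per1-/- against Per2-/-. Limma-voom gave 8, 1, 3 (mean), and 12 (day 7 against 4), and 4 in the interaction for Per1-/- against WT. Without doublets the counts were 1 (Per1-/- against WT), 1 (day 7 against 4), 215 (day 10 against 7), and 0 and 0 in the interaction of the Per1-/- contrasts. A macrophage limit of 60 gave 1 (Per1-/- against Per2-/-), 3 (mean), 0 (day 7 against 4), and 1, 0, and 31 in the interaction. A collagen limit of 20 gave 3 (mean), 1 (day 7 against 4), and 1 (interaction, Per1-/- against WT). A cycling limit of 5 UMI gave 0 (Per1-/- against Per2-/-), 0 (mean), 1 (day 7 against 4), and 0 and 0 in the interaction of the Per1-/- contrasts. Without shared barcodes there were 0 (Per1-/- against Per2-/-) and 0 and 3 in the interaction. With 0 UMI in non-cycling macrophages the interaction gave 0, 0, and 11. With no day term there were 0 (Per1-/- against Per2-/-) and 0 (mean), and without day 10 there were 0, 0, and 0 (day 7 against 4) and 20 and 44 in the interaction. The direction of Syt1 in the interaction for Per1-/- against Per2-/- turned to -0.76 without doublets. The cause was not tested.

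Without 1 library, calls ranged from 0 to 8 (Per1-/- against WT, 8 without Per1-/- on day 4), 0 to 47 (Per1-/- and Per2-/-, 47 without Per2-/- on day 4), 0 to 35 (Per2-/- and WT, 35 without Per2-/- on day 4), 0 to 10 (mean, 10 without Per1-/- on day 4), 1 to 28 (day 7 against 4, 28 without Per2-/- on day 10), 81 to 122 (day 10 against 7), and in the interaction 0 to 16, 0 to 13, and 1 to 58 (58 without WT on day 4 and 1 without Per2-/- on day 7). With 1 library per genotype and day, and 62 to 331 cycling macrophages per library, depth limits small differences of weakly expressed genes.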
